A study of Mus musculus with 4 samples.

Results

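The 34 genes described here make cholesterol and fatty acids or control their synthesis. They were chosen by name and fall into 3 branches: 18 enzymes on the way from mevalonate to cholesterol, 6 regulators around the sterol-sensing SREBP transcription factors, and 10 enzymes of fatty acid synthesis, elongation and desaturation. All 34 were found on the array, Msmo1 under its older name Sc4mol and Me1 under Mod1, and all 34 were among the 21411 genes tested, of 27670 gene names. The probe that stood for each of them was well above background in both dyes on all 4 arrays, so no member passed the filter on dim probes through 1 group alone.

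The RNA came from ZHBTc4, a line of mouse embryonic stem cells whose own Pou5f1 (Oct4) genes are disrupted and whose Oct4 comes from a transgene that doxycycline turns off; Oct4 is the transcription factor that keeps such cells undifferentiated. Cells were grown on irradiated embryonic fibroblasts, moved to gelatin for 2 passages, and then given 2 µg doxycycline (the labels name no volume) for 48 h, either alone (dox, titled as the control in the labels) or with TCP (dox+TCP), in 2 biological replicates each. On each of the 4 two-colour Agilent arrays the treated cells were labelled with Cy5 and ZHBTc4 cells for which no treatment is named, the reference, with Cy3. The study's title concerns LSD1 (Kdm1a), a histone demethylase; the labels do not spell TCP out, and in work on LSD1 it usually stands for tranylcypromine, which inhibits LSD1 and the monoamine oxidases. Both treated groups carried doxycycline, so the drug itself, the loss of Oct4 and any other difference in culture from the reference cannot be told apart.

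Cholesterol is built from acetyl-CoA through mevalonate, isoprenoid units, squalene and lanosterol, and fatty acids are built from the same acetyl-CoA through malonyl-CoA and are then elongated and desaturated. When sterols are plentiful, Insig proteins hold Scap and the SREBP precursors in the endoplasmic reticulum; when sterols are scarce, Scap carries the precursors to the Golgi, where they are cut and released to activate genes of both branches. Early mammalian embryos and stem cells in culture make much of their own sterol and lipid for new membrane.

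Between 74.3% and 78.1% of spots were well above background in Cy5 and between 68.8% and 78.1% in Cy3, and 0 were saturated. Pou5f1 stood at −3.38 and −3.62 (log2 of Cy5 over Cy3) on the dox arrays and at −3.29 and −3.28 on the dox+TCP arrays (limma adjusted p = 0.0105 and 0.0146), and Kdm1a at 0.25 and 0.036 on average (0.152 and 0.812). All 10 pluripotency markers fell with dox and 7 of 10 with dox+TCP. Of 12 trophoblast markers, genes of the placental lineage that these cells can enter without Oct4, 3 rose in each comparison (Msx2, Igf2 and H19), and 11 of 12 lay above 0. Across genes, log2 ratios correlated at 0.662 between the dox arrays and at 0.865 between the dox+TCP arrays. The 2 replicate 1 arrays shared a slide, and their ratios correlated at 0.878. Ratios of the replicate 2 arrays, which were on different slides, correlated at 0.815. Dox+TCP replicate 2 was also scanned on a different day from all the other arrays. It had the lowest share of Cy3 spots above background (68.8%). What scan day adds to its values cannot be told apart. Because the dyes were never swapped, a gene's own dye bias is part of each ratio to the reference; the contrast of dox+TCP with dox removes it. The reference had no array of its own, so its own spread was not estimated. Whether the arrays shared 1 reference extract is not known. In RNA from whole cultures, fewer cells of a type and less RNA per cell cannot be told apart.

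After 48 h of doxycycline, 14 of the 34 genes rose against the reference and 0 fell, where 6.32% of all tested genes rose and 8.28% fell (limma, Benjamini-Hochberg adjusted p under 0.05). The median log2 ratio of the 34 was 0.53, against −0.00099 over all genes. With dox+TCP, 18 of 34 rose and 0 fell, where 7.31% of all genes rose and 8.08% fell, and the median was 0.82, against 0.033 over all genes. Both comparisons are against the ZHBTc4 reference, whose Cy3 levels differed between arrays, and they are set side by side only. On the 4 arrays in turn (dox replicates 1 and 2, dox+TCP replicates 1 and 2) the median of the 34 was 0.62, 0.57, 0.84 and 0.83. In all, 22 of 34 genes lay above the reference on every array, where 28.2% of all genes did, and 3 of 34 lay below it on every array, where 26% did. The genes above on every array included 12 of 18 on the cholesterol branch, 5 of 6 regulators and 5 of 10 on the fatty acid branch. The 3 below were Fasn, Elovl5 and Elovl6, all of the fatty acid branch.

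**Figure D1:**
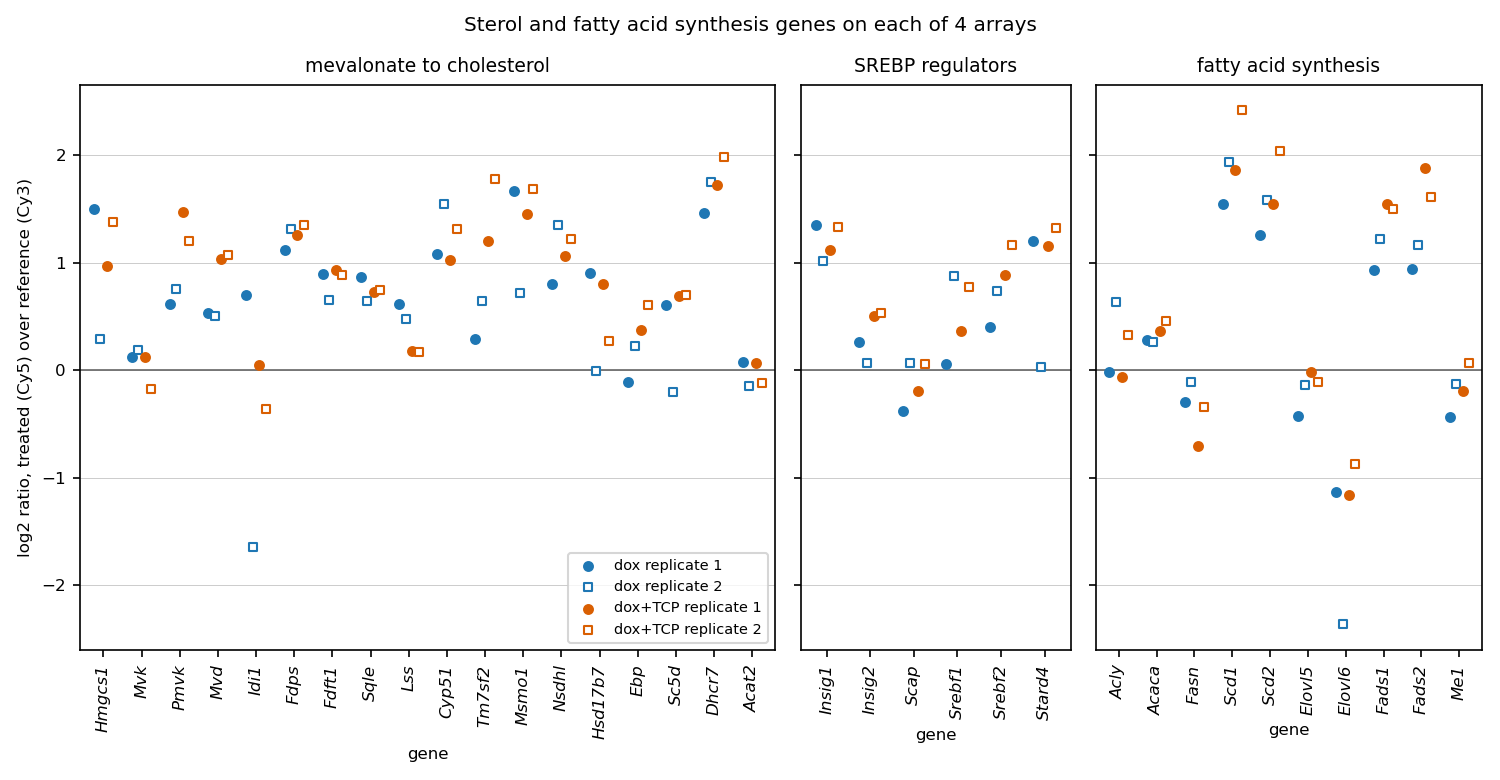
Log2 ratio of treated (Cy5) over reference (Cy3) for each of the 34 genes on each of the 4 arrays, by branch; filled circles are replicate 1, open squares replicate 2, blue dox and orange dox+TCP. Fdps, Cyp51, Dhcr7, Insig1, Scd1 and Scd2 lie above 1 on all 4 arrays, Elovl6 lies at −0.87 or below on all 4, and Hmgcs1, Idi1 and Stard4 have 1 dox array far below the other 3.

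The number called rests on the spread shared by all 4 arrays. From the dox arrays alone, or without dox+TCP replicate 1 or 2, limma called 0 of 34 with dox (17 at an unadjusted p under 0.05; with all arrays 18 of 34 passed that bar, where 32.8% of all genes did), and without dox replicate 1 or 2 it called 11 higher each, with 2 and 1 lower. For dox+TCP the count was 22 higher and 1 lower without either dox array and 0 without either dox+TCP array (16 at an unadjusted p under 0.05; with all arrays 24 of 34, where 33.2% of all genes did). With local backgrounds exactly as read, rather than with the few brightest replaced by the array's median, 0 of 34 were called in either comparison, with medians of 0.31 and 0.67 and 7 and 14 genes at an unadjusted p under 0.05. The scanner's own log ratios, which limma took without further normalization, gave medians of 0.65 and 0.87, with 15 rising and 1 falling with dox and 17 rising and 0 falling with dox+TCP. Centring each array on its median in place of the loess curve put the median of all genes at 0.18 in both comparisons. It put the 34 at 1.08 and 1.24, with 21 and 23 rising and 1 and 0 falling, and 81.1% of all calls were then higher with dox and 78.3% with dox+TCP, against 43.3% and 47.5%.

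Promoters are shown for 4 genes that rose in both comparisons (Cyp51, Dhcr7, Insig1 and Fads2), for Hmgcs1, a textbook SREBP target, and for Fasn and Elovl6, fatty acid genes that lay below the reference on all 4 arrays, so that their letters can be set beside the values. Each stretch, from RefSeq on GRCm38.p6, is the 180 bases that end at the base before the annotated start. It runs 5′ to 3′ on the gene's strand. Dhcr7 has 3 annotated starts, and the start shown was picked for holding the most CCAAT boxes. Its other starts held a GC box or an E-box and no CCAAT box. Capitals mark matches, on either strand, to the core of the sterol response element (TCACNCCAC), the CCAAT box (CCAAT, or ATTGG on the other strand), the GC box (GGGCGG, or CCGCCC) and the E-box (CACGTG, its own reverse complement); a run of capitals can hold 2 overlapping matches.
Hmgcs1, chr13:119690171-119690350 (plus strand): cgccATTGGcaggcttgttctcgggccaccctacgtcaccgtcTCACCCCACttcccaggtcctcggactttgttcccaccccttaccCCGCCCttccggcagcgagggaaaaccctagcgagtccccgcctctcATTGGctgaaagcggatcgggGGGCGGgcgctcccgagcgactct
Cyp51, chr5:4104698-4104877 (minus strand): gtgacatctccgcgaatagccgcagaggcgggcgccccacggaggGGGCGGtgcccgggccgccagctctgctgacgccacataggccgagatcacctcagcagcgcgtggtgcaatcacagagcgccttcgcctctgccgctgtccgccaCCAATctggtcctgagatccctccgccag
Dhcr7, chr7:143830034-143830213 (plus strand): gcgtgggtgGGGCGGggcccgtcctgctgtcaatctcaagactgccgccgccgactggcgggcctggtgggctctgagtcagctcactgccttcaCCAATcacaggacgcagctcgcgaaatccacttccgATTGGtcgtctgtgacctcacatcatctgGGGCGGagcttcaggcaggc
Insig1, chr5:28071232-28071411 (plus strand): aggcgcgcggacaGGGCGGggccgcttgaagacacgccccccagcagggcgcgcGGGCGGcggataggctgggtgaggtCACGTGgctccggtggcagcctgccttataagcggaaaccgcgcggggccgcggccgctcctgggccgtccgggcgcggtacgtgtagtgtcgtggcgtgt
Fads2, chr19:10101504-10101683 (minus strand): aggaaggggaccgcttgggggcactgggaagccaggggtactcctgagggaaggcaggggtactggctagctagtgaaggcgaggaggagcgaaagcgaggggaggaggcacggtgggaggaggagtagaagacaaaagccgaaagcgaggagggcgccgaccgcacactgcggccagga
Fasn, chr11:120824548-120824727 (minus strand): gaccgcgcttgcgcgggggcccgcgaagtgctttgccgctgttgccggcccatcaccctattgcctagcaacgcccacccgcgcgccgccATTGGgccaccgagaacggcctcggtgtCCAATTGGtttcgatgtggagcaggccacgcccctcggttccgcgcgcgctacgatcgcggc
Elovl6, chr3:129532206-129532385 (plus strand): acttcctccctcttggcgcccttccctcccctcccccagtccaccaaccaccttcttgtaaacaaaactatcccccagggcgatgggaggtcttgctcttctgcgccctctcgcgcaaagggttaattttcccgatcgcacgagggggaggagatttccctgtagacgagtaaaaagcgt

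The same 4 motifs were searched in the whole 300 bases that the RefSeq table holds per start (250 before and 50 after) for the 27 members it lists; Fdps, Fdft1, Sqle, Stard4, Scd1, Scd2 and Fads1 were not searched. A gene counted where any of its starts held the motif. The sterol response element core was in 1 of 27, Hmgcs1, from position −137 relative to its start, where 1.44% of the 27025 genes and 1.24% of the 32851 promoters in the table hold it. The CCAAT box was in 22 of 27 (81.5%, against 41.1% of genes and 37.4% of promoters), the GC box in 22 of 27 (81.5%, against 38.2% and 35.7%) and the E-box in 6 of 27 (22.2%, against 8.09% and 7.15%). CCAAT was present in 11 of the 13 searched members that rose in either comparison with the reference and in 11 of the 14 that did not, and the GC box in the same numbers. A match is a description of the letters, the members were not compared with promoters of like base composition, and no match says only that these letters are not in the window. Elovl6, which lay below the reference, and Acaca, which rose with dox+TCP by its brightest probe, each held 0 of the 4 motifs. Fads2 held 1 GC box, from position −186 and so outside the stretch printed.

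On the cholesterol branch, 9 of 18 enzymes rose with dox and 10 of 18 with dox+TCP, with medians of 0.62 and 0.98. Dhcr7, the reductase of the last step to cholesterol, had the highest mean of the branch: its log2 ratio was 1.46 and 1.75 on the dox arrays and 1.72 and 1.98 on the dox+TCP arrays. It was high on all 4 arrays, and the ranges of the groups overlapped. The means were 1.61 ± 0.13 (3.04-fold, limma adjusted p = 0.0162) and 1.85 ± 0.13 (3.61-fold, limma adjusted p = 0.0167), with n = 2 arrays each. Here ± is limma's SE of the mean, from a spread shared by all 4 arrays. Its probe (NM_007856) lies on chromosome 7 from 140275628 to 140275687 in the mm7 coordinates of the files, and the other tested Dhcr7 probe gave means of 1.10 and 1.07.

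Of the early enzymes, Hmgcs1, the synthase that makes HMG-CoA on the way to mevalonate, stood at 1.50 and 0.29 with dox and at 0.97 and 1.38 with dox+TCP. Dox replicate 2 was the low array, and the means of 0.89 and 1.17 did not pass (limma adjusted p = 0.172 and 0.104). Its other tested probe, for the same transcript, read 1.24, 0.83, 0.51 and 0.57 on the same arrays, so that probe was highest with dox and lowest with dox+TCP. Mvk, the kinase that adds the first phosphate to mevalonate, stayed near the reference at 0.13, 0.19, 0.13 and −0.17. The next kinase, Pmvk, was at 0.62 and 0.76 with dox and at 1.47 and 1.20 with dox+TCP. Both dox+TCP arrays lay above both dox arrays, and Pmvk rose in both comparisons (0.69 ± 0.11 and 1.34 ± 0.11; limma adjusted p = 0.0364 and 0.0175). Mvd, the decarboxylase that follows Pmvk, rose to 0.54 and 0.51 with dox and to 1.04 and 1.07 with dox+TCP (limma adjusted p = 0.0325 and 0.0169), again with no overlap between the groups.

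Idi1 isomerizes the isoprenoid unit that Mvd makes, and its arrays disagreed most among the 34, at 0.70 and −1.65 with dox and at 0.048 and −0.36 with dox+TCP. Its second probe disagreed less, at 0.84 and −0.36 with dox and 0.033 and −0.25 with dox+TCP. The files place both probes on chromosome 2 in mm7, whereas the RefSeq table lists Idi1 on chromosome 13, so which locus they read is uncertain. Fdps, which joins isoprenoid units to farnesyl diphosphate, rose evenly, at 1.12 and 1.31 with dox and at 1.26 and 1.35 with dox+TCP (limma adjusted p = 0.016 and 0.0169).

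The enzymes that take farnesyl diphosphate to lanosterol stood below 1 on every array by their brightest probes. Fdft1, squalene synthase, was at 0.89 and 0.65 with dox and at 0.93 and 0.89 with dox+TCP (limma adjusted p = 0.0268 and 0.0217). Sqle, the epoxidase that follows it, was at 0.87 and 0.64 and at 0.73 and 0.74 (limma adjusted p = 0.0262 in both). Lss, which closes the epoxide to lanosterol, rose with dox, at 0.62 and 0.48 (limma adjusted p = 0.0345), and stood at 0.18 and 0.17 with dox+TCP (0.247); with the mean of its probes it was called with dox+TCP too (0.73; 0.0346). Probes of Lss differed in size: one designed on the cDNA AK147680 read 1.10, 1.91, 1.30 and 2.09 on the same arrays, and the other probe for NM_146006 read 0.55, 0.72, 0.37 and 0.29.

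From lanosterol on, Cyp51, the demethylase that acts first, rose to 1.08 and 1.55 with dox and 1.03 and 1.31 with dox+TCP (limma adjusted p = 0.0252 and 0.0283). Tm7sf2, a sterol reductase of the next step, had the largest difference between the groups among the 34, at 0.29 and 0.64 with dox and 1.20 and 1.78 with dox+TCP. It rose with dox+TCP (1.49 ± 0.19; limma adjusted p = 0.0258), and its dox mean of 0.47 did not pass (0.195). Msmo1, the sterol methyl oxidase, was at 1.67 and 0.72 with dox (limma adjusted p = 0.0644) and rose to 1.45 and 1.68 with dox+TCP (0.0394). Nsdhl, its partner in removing the same methyl groups, rose to 0.80 and 1.35 and to 1.06 and 1.22 (limma adjusted p = 0.0345 and 0.0313). Of the 3 other tested Nsdhl probes, those for the same transcript gave means of 1.06 and 1.18 with dox, and the one on the cDNA AK156993 gave −0.18.

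The remaining 4 enzymes of the branch passed in neither comparison. Hsd17b7, the ketosteroid reductase of the methyl removal, was at 0.90 and −0.0022 with dox and at 0.80 and 0.28 with dox+TCP. Ebp, the sterol isomerase, was at −0.11 and 0.22 and at 0.38 and 0.61, the dox+TCP arrays both above the dox arrays. Sc5d, the desaturase before Dhcr7, was at 0.61 and −0.20 with dox and at 0.69 and 0.70 with dox+TCP, and dox replicate 2 was again the low array. Acat2, which makes acetoacetyl-CoA at the start of the route, lay between −0.14 and 0.076 on all 4 arrays.

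Among the regulators, Insig1, which retains SREBP precursors and is itself a sterol-regulated gene, rose in both comparisons. It was at 1.35 and 1.02 with dox and at 1.12 and 1.33 with dox+TCP (1.19 ± 0.13 and 1.23 ± 0.13; limma adjusted p = 0.0215 and 0.0209). The size depended on the processing: over the 14 alternatives the Insig1 mean ran from 0.51 to 1.77 with dox and from 0.24 to 1.73 with dox+TCP. Its second probe was steadier over the arrays, at 1.32, 1.33, 1.33 and 1.32. Insig2, the related retention protein that is less tied to sterol supply, was at 0.26 and 0.067 with dox (limma adjusted p = 0.314) and rose to 0.50 and 0.53 with dox+TCP (0.0422); its other probe gave means of 0.28 and 0.14, and with the mean of its probes the dox+TCP call was lost (0.0711).

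Srebf2 encodes the SREBP that mainly serves the cholesterol branch. It was at 0.41 and 0.74 with dox (limma adjusted p = 0.0735) and rose to 0.89 and 1.17 with dox+TCP (0.0271); with the mean of its probes the dox value passed as well (0.63; 0.0422). Its 4 tested probes spanned means of 0.24 to 1.42 with dox and 0.35 to 1.34 with dox+TCP, all above 0. Srebf1, whose products mainly serve fatty acid synthesis, was at 0.064 and 0.88 with dox and at 0.37 and 0.78 with dox+TCP, higher on both replicate 2 arrays, and did not pass (limma adjusted p = 0.292 and 0.213). Scap, the escort, lay between −0.38 and 0.069 on all 4 arrays.

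Stard4 carries cholesterol between membranes and is a known SREBP target. It was at 1.20 and 0.034 with dox and at 1.16 and 1.33 with dox+TCP (limma adjusted p = 0.278 and 0.0804). Dox replicate 2 stood alone below the other 3 arrays. The other 2 probes for the same transcript did not have that pattern: they read 1.05 and 0.88, and 1.06 and 0.71, with dox, and 0.55 and 0.11, and 0.53 and 0.29, with dox+TCP. The direction of the difference between the groups for Stard4 therefore depends on the probe, 0.63 for the brightest and −0.16 for the mean of all 3.

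**Figure D2:**
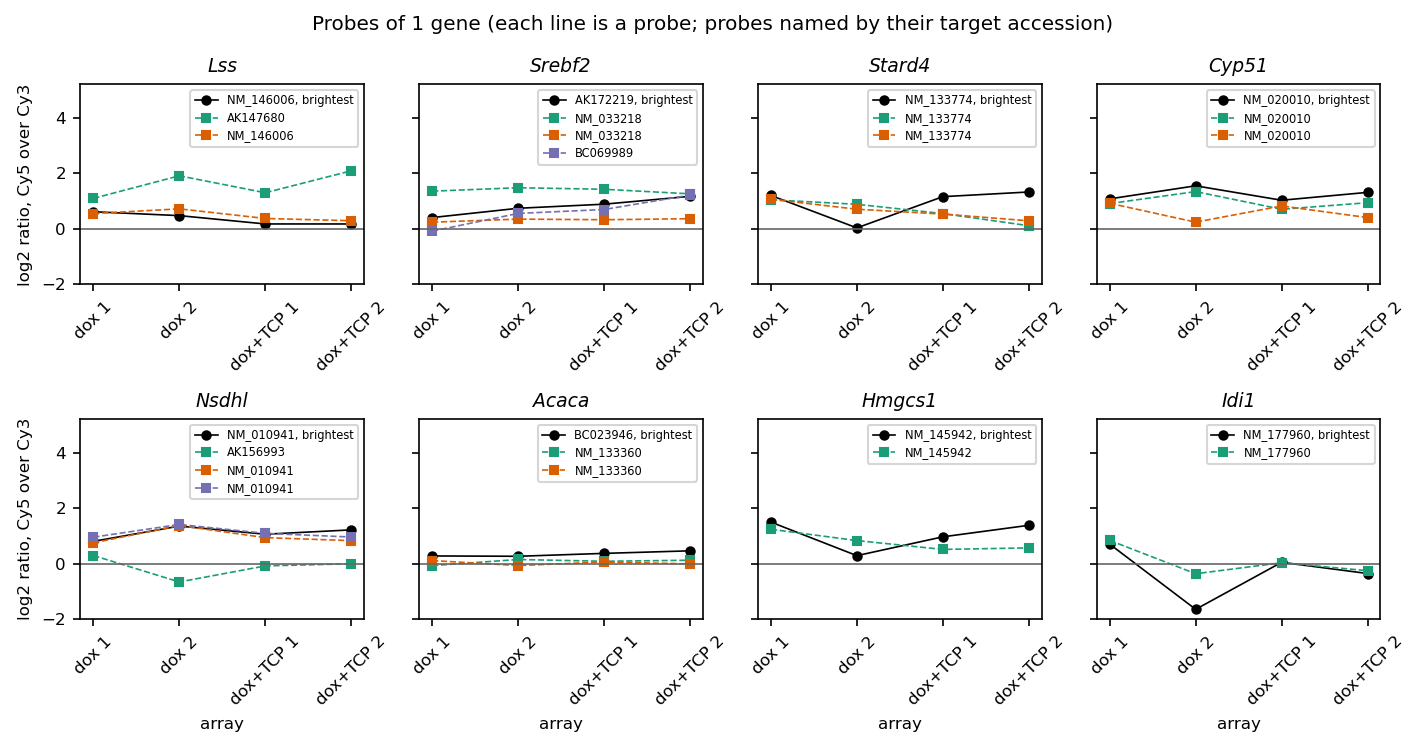
Log2 ratio of Cy5 over Cy3 on each of the 4 arrays for every tested probe of 8 genes, each line 1 probe named by its target accession; the black line is the brightest probe, which stands for the gene. The probes of Srebf2 and Lss keep 1 sign in their means but differ in size, 1 Nsdhl probe lies near or below 0 apart from the other 3, and the brightest probes of Hmgcs1 and Stard4 dip on dox replicate 2 more than their other probes.

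Of the 20 genes with more than 1 tested probe, all probes of 14 had means of 1 sign in both comparisons. The 6 others were Mvk, Idi1, Nsdhl, Hsd17b7, Sc5d and Me1. Of these 6, only Nsdhl was called. The other 2 Cyp51 probes, both for the same transcript, gave means of 1.13 and 0.58 with dox and of 0.82 and 0.61 with dox+TCP. Second probes of Pmvk (0.81 with dox and 1.28 with dox+TCP) and Fdps (0.85 and 0.97) were high as well, and those of Fasn (−0.24 and −0.39) and Elovl5 (−0.24 and −0.25) were below 0. Second probes of Mvk (0.17 and 0.23), Hsd17b7 (−0.048 and 0.035) and Acly (0.075 and 0.22) lay near 0 in both comparisons, and that of Sc5d read −0.044 and 0.63.

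The fatty acid branch split into desaturases and the rest. Scd1, a stearoyl-CoA desaturase that makes monounsaturated fatty acids, had the highest mean of all 34: 1.55 and 1.94 with dox and 1.86 and 2.42 with dox+TCP. It rose by 1.74 ± 0.19 (3.35-fold; limma adjusted p = 0.0219) and 2.14 ± 0.19 (4.41-fold; 0.0182). Scd2, the isoform prominent in embryonic tissue, was at 1.26 and 1.58 and at 1.55 and 2.04, and rose in both comparisons (limma adjusted p = 0.024 and 0.0191). For both genes the group ranges overlapped and the highest array was dox+TCP replicate 2. Probes of the related Scd1 and Scd2 lie on chromosome 19 in mm7, from 44288770 to 44288829 and from 44200407 to 44200466; whether either also binds the other transcript was not tested.

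Fads1 and Fads2, the desaturases that make polyunsaturated fatty acids, rose in both comparisons as well. Fads1 was at 0.93 and 1.22 with dox and at 1.54 and 1.50 with dox+TCP (limma adjusted p = 0.0201 and 0.0169). Fads2 was at 0.94 and 1.17 and at 1.88 and 1.61 (limma adjusted p = 0.023 and 0.0167). In both genes each dox+TCP array lay above each dox array. They too are neighbours on chromosome 19, with probes from 9876165 to 9876224 (Fads1) and from 9744385 to 9744815 (Fads2).

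Of the enzymes that make the chain itself, Acaca alone was called, and in 1 comparison. Acly, which supplies cytosolic acetyl-CoA, was at −0.019 and 0.63 with dox and at −0.062 and 0.33 with dox+TCP, and did not pass. Acaca, the carboxylase that makes malonyl-CoA, was at 0.28 and 0.27 with dox (limma adjusted p = 0.108) and rose to 0.37 and 0.46 with dox+TCP (0.0481). That call was lost with the mean of its probes (0.18; limma adjusted p = 0.183), and the other 2 tested probes had dox+TCP means of 0.026 and 0.11. Fasn, the synthase that builds the chain, was at −0.29 and −0.11 with dox and at −0.70 and −0.34 with dox+TCP (limma adjusted p = 0.378 and 0.0771). Me1, which supplies NADPH, ran from −0.43 to 0.066, and its second probe from 0.10 to 0.88.

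Elovl6, which lengthens the products of fatty acid synthase, was the lowest of the 34. Its ratio was −1.13 and −2.36 with dox and −1.16 and −0.87 with dox+TCP. It was below the reference on every array, dox replicate 2 lowest. The dox mean of −1.74 ± 0.33 missed the threshold (limma adjusted p = 0.0504; 0.0292 with the scanner's ratios), and it passed in 7 of 14 alternatives, over which the adjusted p ran from 0.017 to 0.508. The 14 are not all distinct, since leaving out either dox+TCP array repeats the fit of the dox arrays alone. With dox+TCP the mean was −1.01 ± 0.33 (limma adjusted p = 0.133). Its only probe lies on chromosome 3 from 129477684 to 129477743 in mm7. Elovl5, the elongase of polyunsaturated chains, was at −0.42 and −0.14 with dox and at −0.012 and −0.11 with dox+TCP. Under median centring Fasn, Elovl5, Me1, Scap, Idi1 and Acat2 turned positive in both comparisons (Fasn to 0.56 and 0.087), whereas Elovl6 stayed negative at −1.22 and −0.64.

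The ratio of a gene can move through either dye, so each dye was also followed over the arrays as normalized log2 intensity. The Cy5 level of Hmgcs1 was 14.98, 13.92, 14.54 and 14.84 on the 4 arrays, while its Cy3 level stayed between 13.46 and 13.63. Idi1 went in Cy5 from 13.64 on dox replicate 1 to 11.40 on dox replicate 2, with Cy3 at 12.93 and 13.04. Elovl6 went from 11.11 to 9.71 in Cy5 and from 12.24 to 12.07 in Cy3. In these 3 genes, and in Stard4 (10.42 and 9.46 in Cy5), the low ratio of dox replicate 2 thus came with a low level in the treated cells and an even reference. Msmo1 differed: Cy5 went from 14.60 to 14.17 while Cy3 went from 12.93 to 13.45. Dox replicates lay more than 0.5 apart for 10 of 34 members, where 25.0% of all genes did, and dox+TCP replicates for 3 of 34, where 10.5% did.

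**Figure D3:**
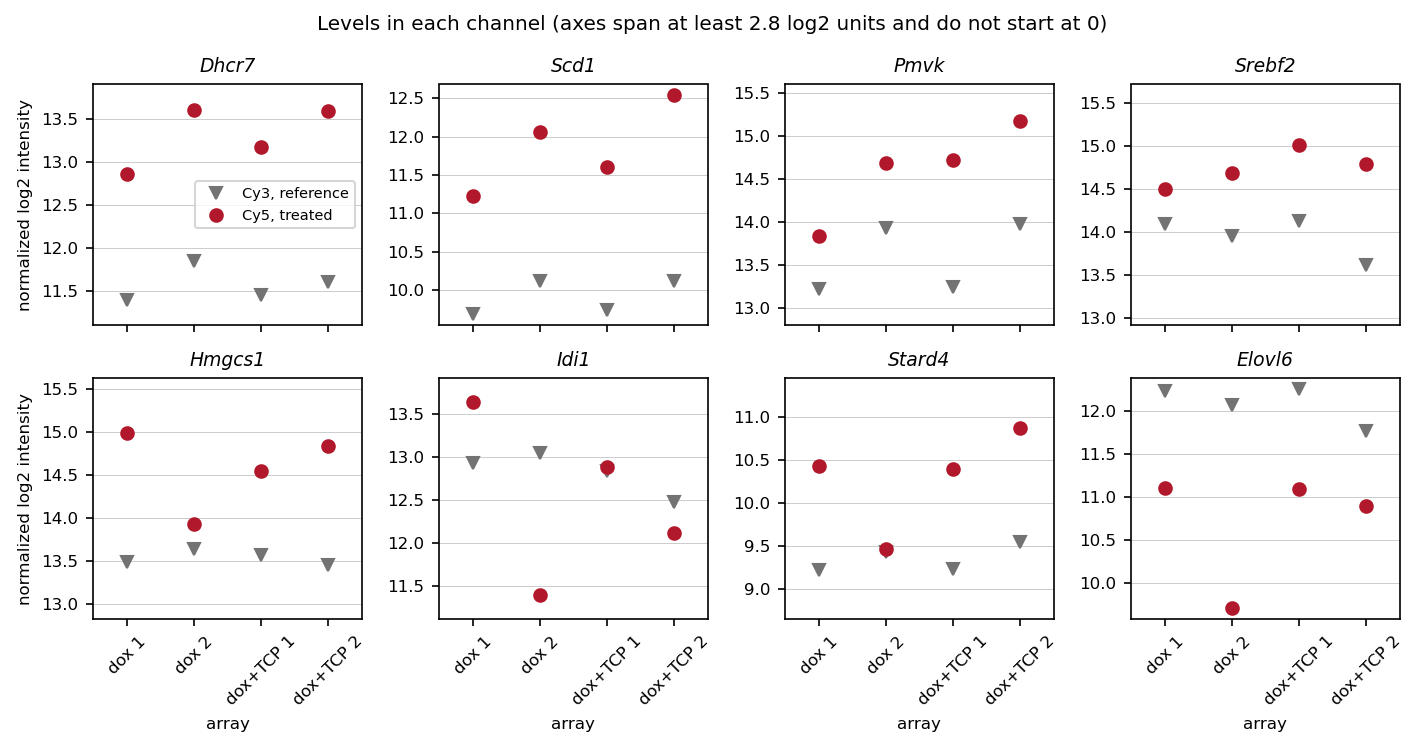
Normalized log2 intensity of 8 genes on each array in Cy5 (treated cells, red circles) and Cy3 (reference, grey triangles); each panel has its own axis, which does not start at 0. In Dhcr7, Scd1, Pmvk and Srebf2 the treated cells lie above the reference on all 4 arrays, and in Hmgcs1, Idi1, Stard4 and Elovl6 the Cy5 level is lowest on dox replicate 2.

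The reference itself was not the same on every array. Over the 34 genes Cy3 was brighter on the replicate 2 arrays than on the replicate 1 arrays in 23, with a median difference of 0.23, against 0.058 over all genes. Insig1 (0.84), Acat2 (0.78) and Pmvk (0.72) were among the brighter ones and Fasn (−0.68) the dimmest. The 12 trophoblast markers were all brighter there, by a median of 1.28. Centring each dye on its median in place of loess turned the members' difference to −0.13. On the 4 arrays the median log2 ratio of the trophoblast markers was 2.44, 0.76, 2.13 and 0.29, that of the 10 fibroblast markers −0.92, −0.026, −0.20 and 0.022, and that of the 10 pluripotency markers −2.66, −2.64, −2.51 and −2.39. The part of the reference differences and of these markers in the members' ratios was not tested.

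Whether TCP added to doxycycline changed these genes is read from dox+TCP against dox, in which a gene's dye bias cancels. The reference cancels only as far as its level was the same on the arrays compared, and the part of its differences in this comparison was not tested. limma called 0% of all genes (0 of 21411) and 0 of the 34 at an adjusted p under 0.05, and so did each of the 14 alternatives. At an unadjusted p under 0.05, 4.4% of all genes (943) and 6 of the 34 were found. The median difference of the 34 was 0.23, against 0.040 over all genes, and it was 0.061 under median centring, against 0.0053. Both dox+TCP arrays lay above both dox arrays for 11 of 34, where 20.2% of all genes did so, and below both for 3 of 34, where 12.8% did. Within both replicates 17 of 34 were higher, where 32.9% of all genes were.

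The 6 genes were Tm7sf2, Fads2, Pmvk, Mvd and Fads1, all higher with TCP, and Lss, lower. Tm7sf2 differed by 1.03 (95% interval 0.27 to 1.78; unadjusted p = 0.0203, limma adjusted p = 0.996). It was higher by 0.92 between the replicate 1 arrays on 1 slide and by 1.14 between the replicate 2 arrays, where its Cy3 level was 10.92 with dox and 10.23 with dox+TCP and its Cy5 level 11.56 and 12.01. Fads2 differed by 0.69 (0.22 to 1.17), Pmvk by 0.65 (0.22 to 1.09), Mvd by 0.53 (0.23 to 0.84) and Fads1 by 0.45 (0.023 to 0.88), each with a limma adjusted p of 0.996. Lss differed by −0.37 (−0.70 to −0.036). All 6 kept their sign in both replicates and in each alternative, by the brightest probe or the mean of probes. They were picked by their p in this same contrast, so a shared sign is largely built in and adds no evidence. The AK147680 probe of Lss alone went the other way, with means of 1.50 with dox and 1.69 with dox+TCP, so the direction for Lss depends on the probe.

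For the other genes that rose in both comparisons with the reference, the interval of the TCP difference included 0. It ran from −0.26 to 0.75 for Dhcr7, from −0.36 to 1.16 for Scd1 and from −0.31 to 1.04 for Scd2. For Insig1 it was −0.46 to 0.55, for Fdps −0.29 to 0.46 and for Fdft1 −0.26 to 0.53. For Sqle it was −0.40 to 0.36, for Cyp51 −0.78 to 0.50 and for Nsdhl −0.60 to 0.72. For all of these except Scd1 and Scd2 the interval excludes a difference of 1 on the log2 scale in either direction. For Idi1 it ran from −2.16 to 2.79. Against dox, the fibroblast markers of feeder cells were higher with TCP in 9 of 10 cases (median 0.41), where 12691 of all 21411 genes were. Of the 10, 6 were higher in both replicates. Postn (0.012), Lum (0.018) and Col3a1 (0.077) differed little from 0. The pluripotency markers were higher in 8 of 10 (median 0.36), and the trophoblast markers in 2 of 12 (median −0.37). The part of these markers in the members' differences was not tested.

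**Figure D4:**
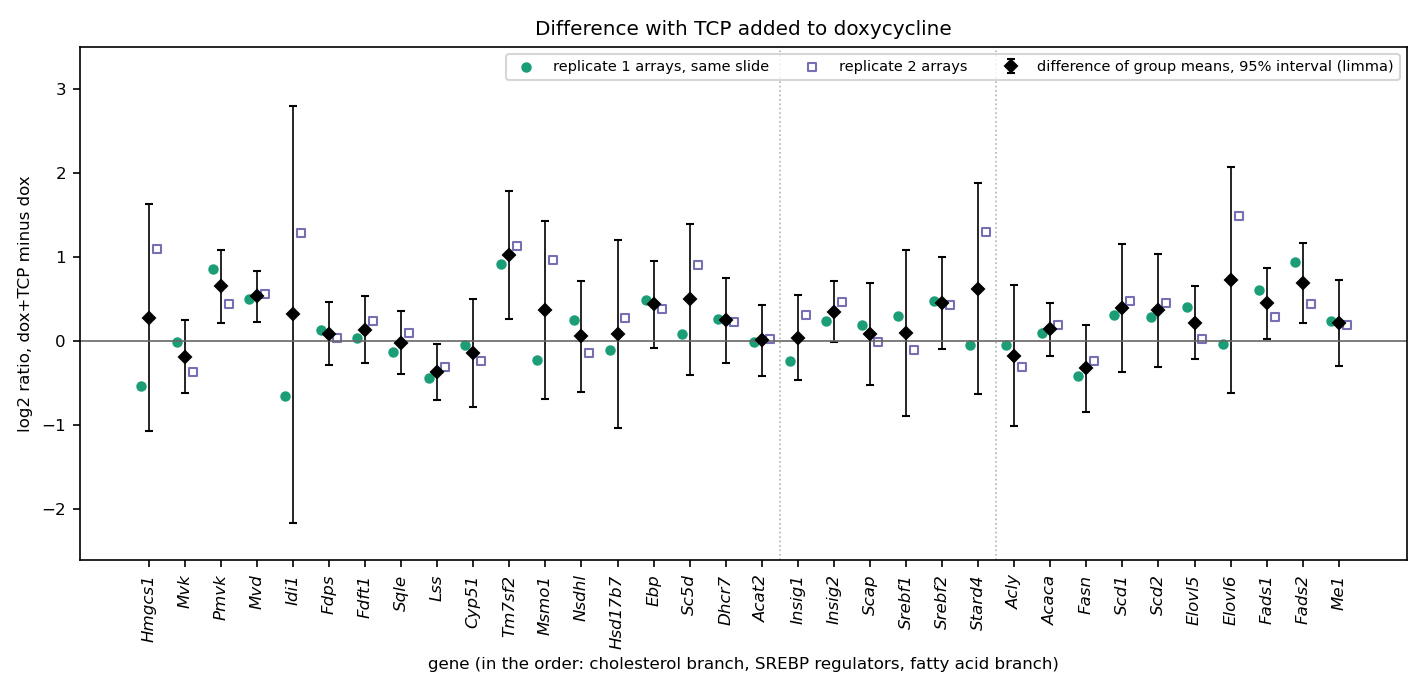
Difference in log2 ratio between dox+TCP and dox for each of the 34 genes; black diamonds and bars are the difference of group means with its 95% interval from limma, green circles the replicate 1 pair on 1 slide and open squares the replicate 2 pair. The bars of Pmvk, Mvd, Tm7sf2, Fads1, Fads2 and Lss exclude 0 before adjustment, and those of Hmgcs1, Idi1, Stard4 and Elovl6 are wide.

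Genes around the 3 branches were read from lists chosen by function. For comparison, 6.32% of all tested genes rose and 8.28% fell with dox, and 7.31% rose and 8.08% fell with dox+TCP. Of 17 genes of other fatty acid supply and elongation, 2 rose and 1 fell with dox, and 5 rose and 1 fell with dox+TCP. Acss2, which makes acetyl-CoA from acetate, rose by 0.95 and 1.10, and Aacs, which activates acetoacetate for lipid synthesis, by 0.93 and 0.52 (limma adjusted p = 0.0326 and 0.026, and 0.0179 and 0.0354). Acacb, the carboxylase whose malonyl-CoA restrains fatty acid oxidation, fell to −1.70 and −1.33 (limma adjusted p = 0.0239 and 0.0334). With dox+TCP, Lpin1, a phosphatidate phosphatase (1.78), and Acsl1, an acyl-CoA synthetase (1.06), were also among those that rose.

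Of 15 sterol transport, storage and export genes, 6 rose and 1 fell with dox, and 5 rose and 0 fell with dox+TCP. Mylip, the ubiquitin ligase that removes lipoprotein receptors, rose most (2.08 and 1.88; limma adjusted p = 0.0139 and 0.0165). Scarb1, a lipoprotein receptor, rose by 1.05 and 1.54. Soat1, which esterifies cholesterol for storage, rose by 0.78 and 0.94, and Npc2, which moves cholesterol out of lysosomes, by 0.77 and 1.15. The Soat1 probe is placed on chromosome 7 in mm7, and which locus it reads was not checked. Abca1, the cholesterol exporter, fell with dox (−1.34; limma adjusted p = 0.0333) and stood at −0.61 with dox+TCP (0.133).

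Of 9 genes that process SREBP or hold it back, 0 were called with dox by limma (4 at an unadjusted p under 0.05, where 32.8% of all genes passed). Mbtps1, the first protease that cuts SREBP, was at −0.44 and −0.22. Of 9 tested genes of the non-sterol isoprenoid branch, Nus1, a subunit of the dolichol-making transferase, rose in both comparisons (1.44 and 1.03; limma adjusted p = 0.019 and 0.027), and Fntb, a farnesyltransferase subunit, fell with dox+TCP (−0.47; 0.0492). Of 15 tested fatty acid oxidation genes, 3 rose and 2 fell with dox, and 4 rose and 2 fell with dox+TCP. Among them Acadm, a mitochondrial dehydrogenase, fell (−0.81 and −0.76), and Pdk4, the kinase that shuts pyruvate dehydrogenase, stood at 0.78 with dox (limma adjusted p = 0.11) and rose by 2.23 with dox+TCP (0.0206).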

How the data were processed

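Spot and local background values are scanned intensities on a linear scale, made with Agilent Feature Extraction 10.1.1.1 per the submitters' processing notes, and per the file headers probes are placed on the mm7 (NCBI35) build of the mouse genome. The deposited files also hold the scanner software's log10 ratio of Cy5 to Cy3, after its own background subtraction and dye normalization per the file headers; these served as an alternative after conversion to log2, and the authors' deposited series matrix matched them within 0.005. Spot flags (other values) are those the authors deposited. What else was done upstream is not stated in the labels or headers.

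From the mean spot intensities, limma 3.58.1 (R 4.3.3) applied normexp (offset 50) on median local backgrounds and loess within each array. Where a local background exceeded 2 times the median of its array and dye (11 to 112 spots), that median took its place; outlier spots (119 to 176 per array) were set to missing. Spots of a probe were averaged, and a gene stands as its brightest tested probe (31114 of 41174 probes tested). lmFit and eBayes took the 4 arrays together, 1 mean for each group (2 residual and 1.79 prior degrees of freedom), with Benjamini-Hochberg adjustment over 21411 genes at 0.05. The precision is limited by 2 arrays a group. Values in the text are log2 ratios unless stated. The ± is limma's SE of a group mean. It rests on a spread pooled over both groups, so it does not show how far the replicates of 1 group lay apart. The code was tested on simulated data.

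The text names all 34 members with their tested probes, Pou5f1 and Kdm1a, and up to 3 genes per comparison from each other list by adjusted p. The members and lists were chosen with earlier results of these data known. Replicate numbers are shared between groups, but the labels do not say that they pair the samples, and with 2 of them the data cannot decide it; the groups were compared without a block. Alternatives covered background, offset, normalization, filter, probe summary, arrays fitted and arrays left out. Some genes that this rule takes are not reported here.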

Additional observations from a re-analysis of the deposited data

How the results depend on the processing

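With local backgrounds as read, limma called 0 of all genes and 0 of the 34 members in each comparison with the reference. Over all genes, median centring gave 6021 calls with dox and 5107 with dox+TCP, and fitting a group's own arrays gave 0 with dox (5140 at an unadjusted p under 0.05; 0 of the 34) and 5934 with dox+TCP. Leaving out 1 array gave 0 to 4122 calls with dox (0 to 11 of the 34 higher) and 0 to 5934 with dox+TCP (0 to 22 of the 34 higher). Without dox replicate 2 the dox count was 2067. Leaving out a dox+TCP array takes the dox comparison's spread from the dox arrays alone, so it repeats that fit. Without dox replicate 1, Pmvk, Mvd and Lss lost their dox calls; without dox replicate 2, those 3 and Nsdhl, Scd2 and Fads2 did. For dox+TCP against dox, 0 genes and 0 members were called in all 14 alternatives. With replicate number as a block, which the labels do not give as a pairing, 0 were again called (1625 genes and 7 members at an unadjusted p under 0.05); replicate differences of the groups correlated at 0.472 across genes. Slide and scan day as random blocks could not be fitted. The reference difference between replicates turned from 0.23 to −0.13 under median centring of each dye. On the forward strand alone, CCAAT was in 11 of 27 promoters. The causes of these shifts were not tested.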
